A study of Mus musculus with 143 samples.

Results

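Pou6f1, Pou5f1 and Pou2f1 encode POU transcription factors, and they were taken by symbol from all poly(A) and RiboMinus count files of a series on mouse oocytes that lack ribonucleases of the RNA exosome. The 3 genes are Pou6f1 (ENSMUSG00000009739), Pou5f1 (ENSMUSG00000024406) and Pou2f1 (ENSMUSG00000026565), out of 55573 gene IDs in each poly(A) file and 55487 in each RiboMinus file, and each had 1 row in every file. DIS3 and EXOSC10 are exosome ribonucleases, and the question of the series is what their loss does to oocyte RNA and to transcription. Poly(A) libraries of single oocytes came from control mice and from conditional Dis3 knockouts (Dis3 cKO) at 3 stages: oocytes with an intact germinal vesicle (GV; 8 control and 15 Dis3 cKO), such oocytes after 3 h in culture (GV3h; 8 and 16), and ovulated metaphase II eggs (MII; 8 and 16). RiboMinus libraries, made with random primers after removal of ribosomal RNA, came from adult GV oocytes (control and Dis3 cKO) and from oocytes labelled p20, the usual shorthand for postnatal day 20 (control, Dis3 cKO, Exosc10 cKO and the double knockout, dcKO), with 8 libraries per group. GV oocytes were taken from ovaries into M2 medium and MII eggs from the oviducts of superovulated females, and the mutant mice had been made with CRISPR/Cas9. The labels give no strain, no Cre driver and no age for the adults, and they do not describe the control genotype further. Each RiboMinus group carries 2 tags in its titles with 4 oocytes each. No label says that a tag is an animal, so p-values over libraries measure the spread between oocytes.

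POU proteins bind DNA through a bipartite domain, a POU-specific domain joined to a POU homeodomain, and the classic site of the family is the octamer. POU2F1, also called OCT1, is expressed in most cell types and serves housekeeping, histone and small nuclear RNA genes among others. POU5F1, also called OCT4, keeps early embryonic cells and germ cells in their state, and its transcript is stored in growing oocytes. POU6F1, also called BRN5, is known mainly from the nervous system.

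The sequence before the first listed start of each gene is shown because chromatin peaks at these starts are compared further on. They come from RefSeq (GRCm38.p6), and capitals mark motifs found on either strand. Windows of 250 bases were searched, on the minus strand of chromosome 15 for Pou6f1 (chr15:100599985-100600234), the plus strand of chromosome 17 for Pou5f1 (chr17:35505782-35506031) and the minus strand of chromosome 1 for Pou2f1 (chr1:166002635-166002884). The RefSeq gene records reach past these starts by 77 bases for Pou6f1 and 115 bases for Pou2f1, and only the bases outside the records are printed (chr15:100600062-100600234 and chr1:166002750-166002884).
Pou6f1: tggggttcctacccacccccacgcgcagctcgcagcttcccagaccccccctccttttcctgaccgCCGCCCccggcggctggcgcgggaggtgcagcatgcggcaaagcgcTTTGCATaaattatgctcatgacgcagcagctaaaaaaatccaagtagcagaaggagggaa
Pou5f1: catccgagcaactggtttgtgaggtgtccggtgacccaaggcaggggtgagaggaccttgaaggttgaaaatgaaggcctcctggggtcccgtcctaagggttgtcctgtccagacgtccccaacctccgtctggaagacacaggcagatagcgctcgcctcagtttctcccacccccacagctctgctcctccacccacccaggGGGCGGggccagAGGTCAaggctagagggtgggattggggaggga
Pou2f1: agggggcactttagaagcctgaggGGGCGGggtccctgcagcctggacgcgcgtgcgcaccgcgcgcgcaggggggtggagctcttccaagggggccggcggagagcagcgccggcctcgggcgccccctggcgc
The letters searched were the octamer ATGCAAAT, its 7-base core ATGCAAA, the homeodomain core TAATTA, the GC box GGGCGG and the nuclear receptor half-site AGGTCA. The core lies inside the octamer, so every octamer was also counted as the core. The Pou6f1 window held 1 ATGCAAA in reverse, from -138 to -132 relative to the start, and 3 GC boxes, 2 of them inside the gene record. Among 27025 promoter windows of this length, 4.06% held ATGCAAA, 1.61% the full octamer and 4.90% TAATTA. The first Pou5f1 window held a GC box from -45 to -40 and an AGGTCA from -33 to -28, letters present in 32.9% and 13.8% of windows. The first Pou2f1 window held 2 GC boxes, 1 of them inside the gene record.

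Single libraries held from 4843964 to 15412200 gene counts in the poly(A) data and from 8492102 to 35429028 in the RiboMinus data. All levels in the text are CPM, counts scaled to a library of 1000000 counts after TMM normalization, 1 scale per assay, and levels are compared between libraries but not between genes, because the counts are not corrected for transcript length. The targeted genes followed the labels: Dis3 was lower in each of the 6 comparisons of a Dis3 cKO or dcKO group with its control (log2 fold changes from -3.63 to -2.18), and Exosc10 was lower in p20 Exosc10 cKO (-5.22) and dcKO (-4.01). Exosc10 was also lower in GV3h Dis3 cKO, where it was not targeted (-0.53, adjusted p = 0.00259). Summed oocyte markers (10 genes, Zp3 and Gdf9 among them) stood between 6711 and 26210 CPM in single libraries. Summed granulosa and cumulus markers (12 genes) stood between 22.3 and 231 CPM. Summed endothelial markers (3 genes) stood between 19.5 and 151 CPM. Leukocyte markers (3 genes) reached at most 7.57 CPM and theca and stroma markers (6 genes) at most 43.3 CPM. The library MII Dis3 cKO 15 stood apart, with 14.4 gene counts per count of the synthetic ERCC spike-in RNAs against 48.6 to 81.0 in the other MII Dis3 cKO libraries, and with 16762 detected genes against 18025 to 19753.

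Pou6f1 was close to absent from control p20 oocytes and higher in the double knockout. In p20 controls it ranged from 0 to 1.87 CPM (median 0.225), and 2 of 8 libraries had no count. In dcKO oocytes all 8 libraries had counts, at 6.62, 38.4, 5.70 and 7.97 CPM under the first title tag and 2.20, 6.60, 5.97 and 1.86 CPM under the second. The groups overlapped by 1 library: 7 of 8 dcKO oocytes were above the highest control. The mean was 9.41 ± 11.9 CPM in dcKO against 0.488 ± 0.687 CPM in controls (SD, n = 8 each), a log2 fold change of 4.24 (SE 0.97, adjusted p = 0.000405; here and throughout from edgeR's quasi-likelihood test, adjusted after Benjamini and Hochberg over every gene that passed the count filter). In that comparison 53.7% of 15882 tested genes passed the same threshold of 0.05. Counts in dcKO libraries ran from 21 to 546. Other p20 libraries also had counts that helped Pou6f1 past the filter, up to 38 in controls, 63 in Dis3 cKO and 64 in Exosc10 cKO. The gene was chosen with earlier results of these data known, so this test is a description and not independent support.

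The highest dcKO oocyte, library 2 of the first tag, held 546 of the 1022 Pou6f1 counts of the group, and without it the dcKO mean was 5.27 ± 2.33 CPM (SD, n = 7) and the log2 fold change 3.39 (adjusted p = 0.0036). Over 13 alternative fits the log2 fold change of dcKO against control ranged from 3.05 to 5.60. It passed the threshold in all 13, which is a description for the reason given above. Within the tags, the means were 14.7 CPM (dcKO) against 0.186 CPM (control) for tag 1 and 4.16 against 0.789 CPM for tag 2. Depth and markers moved with the group: dcKO libraries held 8492102 to 14246463 gene counts against 16043788 to 19702270 in controls. Summed granulosa and cumulus markers stood at 25.3 to 51.3 CPM in dcKO against 61.1 to 78.2 CPM in controls. Summed endothelial markers stood at 23.5 to 42.7 CPM against 58.8 to 81.6 CPM, and summed oocyte markers at 14103 to 16248 CPM against 11002 to 14213 CPM. The part of depth and markers in the result was not tested.

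Neither single knockout passed the test for Pou6f1. In p20 Dis3 cKO it ranged from 0 to 5.75 CPM (median 0.342) with a log2 fold change against control of 1.09 (SE 0.94, adjusted p = 0.576), where 7.37% of genes were called. One oocyte, library 4 of the first tag, held 63 of the group's 100 counts, and without the first Dis3 cKO tag the log2 fold change was -1.09 (adjusted p = 0.776), so its direction rests on that tag. In p20 Exosc10 cKO it ranged from 0 to 3.10 CPM (median 0.642) with a log2 fold change of 1.04 (SE 0.92, adjusted p = 0.5678), where 7.45% of genes were called. The log2 fold change of the double knockout was 3.15 over Dis3 cKO (SE 0.93, adjusted p = 0.00485; 51.5% of genes called) and 3.20 over Exosc10 cKO (SE 0.91, adjusted p = 0.00398; 49.2% called). Since Pou6f1 was chosen with earlier results of these data known, these values are a description and not independent support. All 8 dcKO libraries were above the mean of either single knockout, while 5 of 8 were above the highest Dis3 cKO oocyte and 6 of 8 above the highest Exosc10 cKO oocyte. Both calls were lost without the first dcKO tag, at 1.94 (adjusted p = 0.174) over Dis3 cKO and 1.998 (adjusted p = 0.159) over Exosc10 cKO, and the first was also lost without the second Dis3 cKO tag (2.35, adjusted p = 0.0992). Without the highest dcKO oocyte alone they were 2.29 (adjusted p = 0.0397) and 2.34 (adjusted p = 0.0345). The excess of the double knockout over the sum of both single effects was 2.11 (SE 1.28, adjusted p = 0.216) and did not pass the test; it passed without the first Dis3 cKO tag (4.28, adjusted p = 0.0334).

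**Figure D1:**
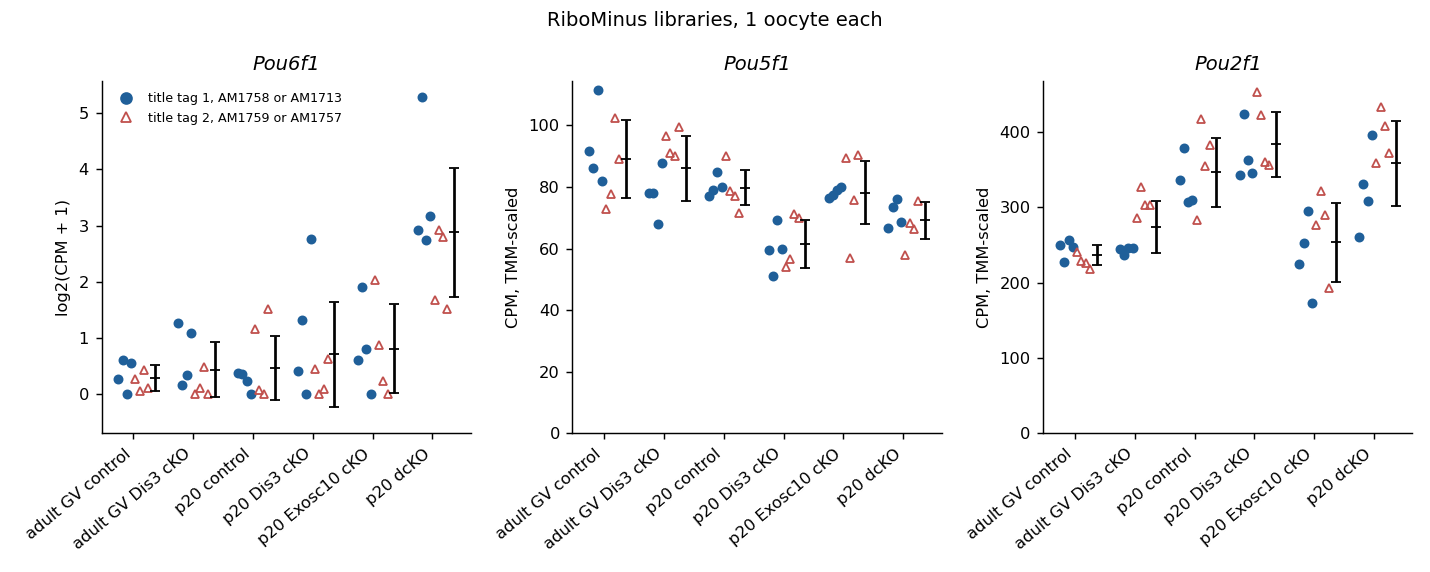
Levels of the 3 POU genes in RiboMinus libraries, 1 point per oocyte, as log2(CPM + 1) for Pou6f1 and as TMM-scaled CPM for Pou5f1 and Pou2f1; filled circles and open triangles are the pair of title tags of each group, and bars give mean and SD over 8 libraries. The dcKO oocytes stand highest for Pou6f1 (1.86 to 38.4 CPM), the p20 Dis3 cKO oocytes lowest for Pou5f1 (mean 61.4 CPM) and the p20 Exosc10 cKO oocytes lowest among p20 groups for Pou2f1 (mean 253 CPM).

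In adult GV oocytes Pou6f1 stayed low in both genotypes. It ranged from 0 to 0.523 CPM in controls (median 0.202) and from 0 to 1.40 CPM in Dis3 cKO (median 0.192), and the 2 ranges overlapped. It did not pass the count filter of the adult fit and was not tested there. Between ages, the control level in adult GV minus p20 was -1.07 on the log2 scale (SE 0.97, adjusted p = 0.482) and the Dis3 cKO level -1.35 (SE 0.94, adjusted p = 0.264), where 19.1% and 37.5% of 17267 genes were called. Over 10 alternatives these values ranged from -2.81 to 0.28 and from -3.03 to 0.83, so their direction depends on the setting. The 6 RiboMinus means rose from adult control (0.233 CPM) over adult Dis3 cKO (0.422 CPM), p20 control (0.488 CPM), p20 Exosc10 cKO (1.02 CPM) and p20 Dis3 cKO (1.07 CPM) to dcKO (9.41 CPM), and the ranges of neighbours in this order overlapped in every case. The order rests in part on single libraries: without p20 Dis3 cKO library 4 of the first tag, that group's mean was 0.400 CPM, below the p20 control mean.

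Poly(A) libraries held almost no Pou6f1 reads. The highest level in any of the 71 libraries was 2.20 CPM, in GV control 4. All 8 MII control eggs had a count of 0, which with 88221183 gene counts in the group allows up to 0.0340 CPM; that limit, 3 counts over the group, covers counting error only. Of MII Dis3 cKO eggs, 5 of 16 had a count, at no more than 0.422 CPM. The stage with counts in most Dis3 cKO oocytes was GV3h: 16 of 16 Dis3 cKO libraries had 1 to 16 counts (0.0732 to 1.18 CPM, median 0.351), against 2 of 8 control libraries (0 to 0.556 CPM, median 0). At GV, 8 of 15 Dis3 cKO and 2 of 8 control oocytes had a count. Pou6f1 failed the count filter of the poly(A) fit. With no filter the log2 fold changes of Dis3 cKO over control were -0.19 at GV (adjusted p = 1), 2.04 at GV3h (adjusted p = 0.137) and 2.41 at MII (adjusted p = 0.102), and none passed the test. MII was below GV in that fit, in controls (adjusted p = 0.00357) and in Dis3 cKO (-1.94, adjusted p = 0.0466). GV control 4 held 11 of the 14 GV control counts; without it the control call was lost (adjusted p = 0.109), the other 7 GV controls had a mean of 0.0567 CPM, and the Dis3 cKO difference at GV turned to 2.06 (adjusted p = 0.223). These fitted values rest on counts at or near 0 and are no bounds.

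Pou5f1 was lower in p20 oocytes without Dis3. It ranged from 51.0 to 71.1 CPM (median 59.6) in Dis3 cKO and from 71.4 to 89.9 CPM (median 78.9) in controls, so that all 8 knockout oocytes were below the lowest control. The means were 61.4 ± 7.78 and 79.8 ± 5.58 CPM (SD, n = 8 each), a log2 fold change of -0.37 (SE 0.09, adjusted p = 0.0043). Both tags showed it, with means of 59.9 and 62.9 CPM in Dis3 cKO against 80.3 and 79.2 CPM in controls. The call was lost when the 4 oocytes of each tag were summed to 1 sample (-0.39, adjusted p = 0.169), without the first Dis3 cKO tag (-0.33, adjusted p = 0.0844) and without the first control tag (-0.36, adjusted p = 0.084). Scaled to the ERCC spike-in, the difference was -0.69, while the median gene moved by -0.31. Gene counts were also lower in p20 Dis3 cKO libraries (9566019 to 15335017) than in controls (16043788 to 19702270), and the part of depth in the result was not tested.

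The other p20 knockouts lay nearer to the controls for Pou5f1. Exosc10 cKO ranged from 56.9 to 90.4 CPM (median 78.3), across the control range, with a log2 fold change of -0.03 (SE 0.09, adjusted p = 0.884). The dcKO ranged from 57.9 to 76.2 CPM (median 68.4), with 5 of 8 oocytes below the lowest control and all 8 below the control mean, and its log2 fold change of -0.20 (SE 0.09, adjusted p = 0.0548) missed the threshold. The dcKO level exceeded the Dis3 cKO level by 0.18 on the log2 scale (SE 0.09, adjusted p = 0.0884), which did not pass the test. In adult GV oocytes, controls (72.7 to 111 CPM, median 87.6) and Dis3 cKO (68.0 to 99.4 CPM, median 88.8) overlapped, with a log2 fold change of -0.03 (SE 0.09, adjusted p = 0.86) where 28.1% of 15334 genes were called. Scaled to the ERCC spike-in as the measure of total RNA, it was -0.58 (adjusted p = 0.00831), while the median gene moved by -0.52. The Dis3 effect in adult GV minus that at p20 was 0.33 (SE 0.13, adjusted p = 0.0898; 9.32% of genes called) and did not pass the test. Within Dis3 cKO oocytes Pou5f1 was higher in adult GV than at p20 by 0.49 (SE 0.09, adjusted p = 2.51e-05), with 7 of 8 adult oocytes above the highest p20 oocyte, while the controls differed by 0.16 (SE 0.09, adjusted p = 0.215). Both age differences turned negative with ERCC scaling, to -1.43 in Dis3 cKO and -1.54 in controls, where the median gene moved by -1.86 and -1.69.

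In poly(A) libraries Pou5f1 fell from GV oocytes to MII eggs of control mice. It ranged from 158 to 292 CPM at GV (median 220), from 184 to 228 CPM at GV3h (median 212) and from 91.9 to 182 CPM at MII (median 140). All 8 MII eggs were below the GV mean and 6 of 8 below the lowest GV oocyte. The log2 fold change from GV to MII was -0.69 (SE 0.20, adjusted p = 0.0027; 58.5% of 17389 genes called), and from GV to GV3h -0.11 (SE 0.20, adjusted p = 0.839; 2.71% called). With ERCC scaling the median gene moved by -2.12 between GV and MII controls, and Pou5f1 by -2.54.

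In Dis3 cKO, Pou5f1 ranged from 98.99 to 233 CPM at GV (median 184), from 156 to 219 CPM at GV3h (median 179) and from 107 to 673 CPM at MII (median 139). Against controls the log2 fold changes were -0.35 at GV (SE 0.17, adjusted p = 0.154; 21.9% of genes called), -0.19 at GV3h (SE 0.17, adjusted p = 0.398; 38.6% called) and 0.29 at MII (SE 0.18, adjusted p = 0.184; 42.1% called), and none passed the test. With ERCC scaling they were -0.64 at GV (adjusted p = 0.000521) and 0.44 at MII (adjusted p = 0.0118), beside median shifts of -0.23 and 0.52. At GV 14 of 15 and at GV3h 15 of 16 knockout oocytes were below the control mean. The library MII Dis3 cKO 15 held the 673 CPM, and the next highest MII Dis3 cKO egg stood at 164 CPM. Without that library the GV difference stayed at -0.35, with an SE of 0.098 against 0.17 with all libraries, and passed the test (adjusted p = 0.00535), the MII difference was -0.02, and the fall from GV to MII within Dis3 cKO, -0.05 with all libraries (SE 0.14, adjusted p = 0.788; 63.3% called), became -0.36 (adjusted p = 0.00011). The Dis3 effect at MII minus that at GV was 0.64 (SE 0.25, adjusted p = 0.0754; 13.2% called) and at GV3h minus GV 0.16 (SE 0.25, adjusted p = 0.85; 2.04% called).

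RefSeq lists 7 further loci named as Pou5f1 copies, all pseudogenes, and 5 of them have a row in the files. Their highest level in any library was 0.530 CPM (Gm5712). How reads that map to several copies were counted is not given in the sources used here, so Pou5f1 counts are uncertain to that extent.

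**Figure D2:**
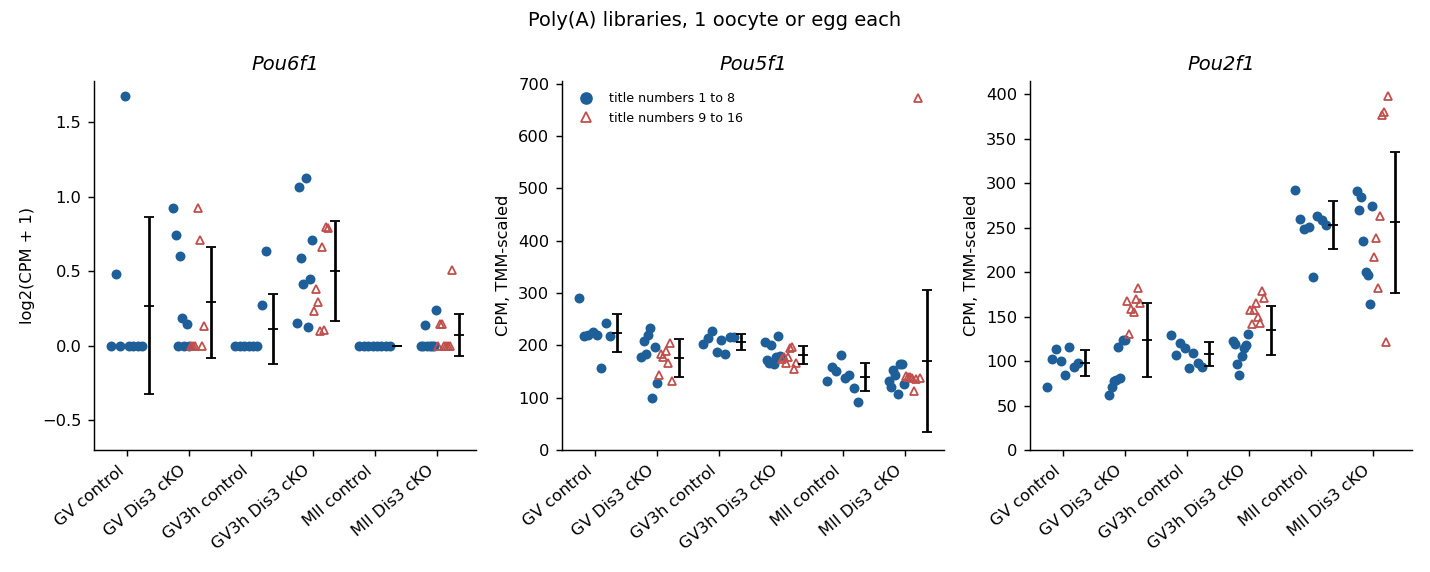
Levels in poly(A) libraries, 1 point per oocyte or egg, as log2(CPM + 1) for Pou6f1 and as TMM-scaled CPM for Pou5f1 and Pou2f1; filled circles are title numbers 1 to 8, open triangles 9 to 16, and bars give mean and SD. For Pou2f1 the GV and GV3h Dis3 cKO oocytes numbered 9 to 16 (means 162 and 158 CPM) stand above those numbered 1 to 8 (means 91.7 and 112 CPM), and 1 MII Dis3 cKO egg stands at 673 CPM for Pou5f1.

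Pou2f1 rose from GV oocytes to MII eggs in both genotypes of the poly(A) data. Controls ranged from 71.5 to 116 CPM at GV (median 99.6), from 91.9 to 130 CPM at GV3h (median 108) and from 195 to 292 CPM at MII (median 256), and every MII egg was above every GV oocyte. The log2 fold change from GV to MII was 1.37 in controls (SE 0.18, adjusted p = 1.26e-09) and 1.04 in Dis3 cKO (SE 0.13, adjusted p = 1.47e-10), where 13 of 16 MII eggs were above the highest GV oocyte. The GV3h level differed from GV by 0.15 in controls (SE 0.18, adjusted p = 0.758) and by 0.12 in Dis3 cKO (SE 0.13, adjusted p = 0.579; 17.3% of genes called), neither past the threshold. Since MII eggs hold fewer gene counts per ERCC count (means of 46.0 in controls against 137 at GV), the direction depends on the scale: with ERCC scaling the GV to MII difference was -0.50 in controls and -0.25 in Dis3 cKO, against medians over all genes of -2.12 and -1.50, so that Pou2f1 stood above the median gene on both scales.

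In Dis3 cKO oocytes at GV and GV3h, the level of Pou2f1 went with the title numbers. Dis3 cKO oocytes ranged from 61.7 to 183 CPM at GV (median 124), from 84.1 to 179 CPM at GV3h (median 136) and from 122 to 398 CPM at MII (median 251). The log2 fold changes over control were 0.35 at GV (SE 0.16, adjusted p = 0.115), 0.32 at GV3h (SE 0.16, adjusted p = 0.106) and 0.02 at MII (SE 0.16, adjusted p = 0.94), and none passed the test. At GV, oocytes numbered 1 to 8 had a mean of 91.7 ± 25.2 CPM (SD, n = 8) and those numbered 10 to 16 a mean of 162 ± 16.2 CPM (SD, n = 7), with no overlap; at GV3h the means were 112 ± 15.2 and 158 ± 13.2 CPM (SD, n = 8 each), also without overlap. The labels do not say what sets the 2 runs of numbers apart, and controls carry numbers 1 to 8 only. With knockout numbers 1 to 8 alone the differences were -0.09 at GV and 0.05 at GV3h. With the higher numbers alone they were 0.73 and 0.51, given without a test because this split was made after these levels were seen. Neither interaction with stage passed the test (-0.33 for MII minus GV, adjusted p = 0.347; -0.03 for GV3h minus GV, adjusted p = 0.977).

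In RiboMinus libraries at p20, Pou2f1 was lower without Exosc10 and not without both enzymes. Controls ranged from 282 to 417 CPM (median 345), Exosc10 cKO from 173 to 321 CPM (median 265), Dis3 cKO from 342 to 453 CPM (median 361) and dcKO from 260 to 432 CPM (median 365). All 8 Exosc10 cKO oocytes were below the control mean and 5 below the lowest control. The log2 fold change of Exosc10 cKO was -0.45 (SE 0.11, adjusted p = 0.00807); it was lost when oocytes were summed per tag (-0.46, adjusted p = 0.144), with ERCC scaling (-0.45, adjusted p = 0.447), without the first Exosc10 cKO tag (-0.36, adjusted p = 0.091) and without either control tag (-0.50 and -0.40, adjusted p = 0.0505 and 0.0917). Dis3 cKO differed from control by 0.15 (SE 0.11, adjusted p = 0.492) and dcKO by 0.06 (SE 0.11, adjusted p = 0.683). The double knockout exceeded the Exosc10 single knockout by 0.51 (SE 0.11, adjusted p = 0.000276), with 6 of 8 dcKO oocytes above the highest Exosc10 cKO oocyte; this call was lost only with ERCC scaling (0.43, adjusted p = 0.132) among the 13 alternatives. The excess over the sum of both single effects was 0.36 (SE 0.16, adjusted p = 0.0769), where 31.4% of genes were called. That excess passed the threshold in 3 of 16 alternatives, the replicate block among them. The dcKO level differed from Dis3 cKO by -0.09 (SE 0.11, adjusted p = 0.506).

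In adult GV oocytes Pou2f1 was higher in Dis3 cKO, in 1 of its 2 title tags. Controls ranged from 218 to 256 CPM (median 234) and Dis3 cKO from 236 to 326 CPM (median 266), and the 4 knockout oocytes above the highest control all carried the tag AM1757 (mean 304 ± 16.7 CPM, n = 4). Those tagged AM1713 had a mean of 243 ± 4.84 CPM (n = 4), inside the control range. The log2 fold change was 0.23 (SE 0.07, adjusted p = 0.0153). It was 0.064 without AM1757 (adjusted p = 0.461) and 0.36 without AM1713 (adjusted p = 0.0008). The call was also lost without either control tag (0.27 and 0.17, adjusted p = 0.0752 and 0.242), with tags as the samples (0.18, adjusted p = 0.572), with the tag as a random block in limma (0.23, adjusted p = 0.0713) and with no count filter (0.22, adjusted p = 0.0679). With ERCC scaling the value was -0.32 (adjusted p = 0.159), where the median gene moved by -0.52. Marker sums moved with the group: granulosa and cumulus markers stood at 22.9 to 60.9 CPM in Dis3 cKO and 43.2 to 70.9 CPM in controls, and oocyte markers at 6711 to 9546 CPM and 8210 to 12989 CPM. Their part in the result was not tested. Between ages, Pou2f1 was lower in adult GV than at p20 by 0.55 in controls (log2 fold change -0.55, SE 0.10, adjusted p = 0.000102) and by 0.48 in Dis3 cKO (-0.48, SE 0.10, adjusted p = 0.000162), and in both genotypes all 8 adult oocytes were below the lowest p20 oocyte. The control difference missed the threshold with tags as the samples (-0.53, adjusted p = 0.0918). With ERCC scaling the age differences were -2.25 and -2.42, where the median gene moved by -1.69 and -1.86.

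**Figure D3:**
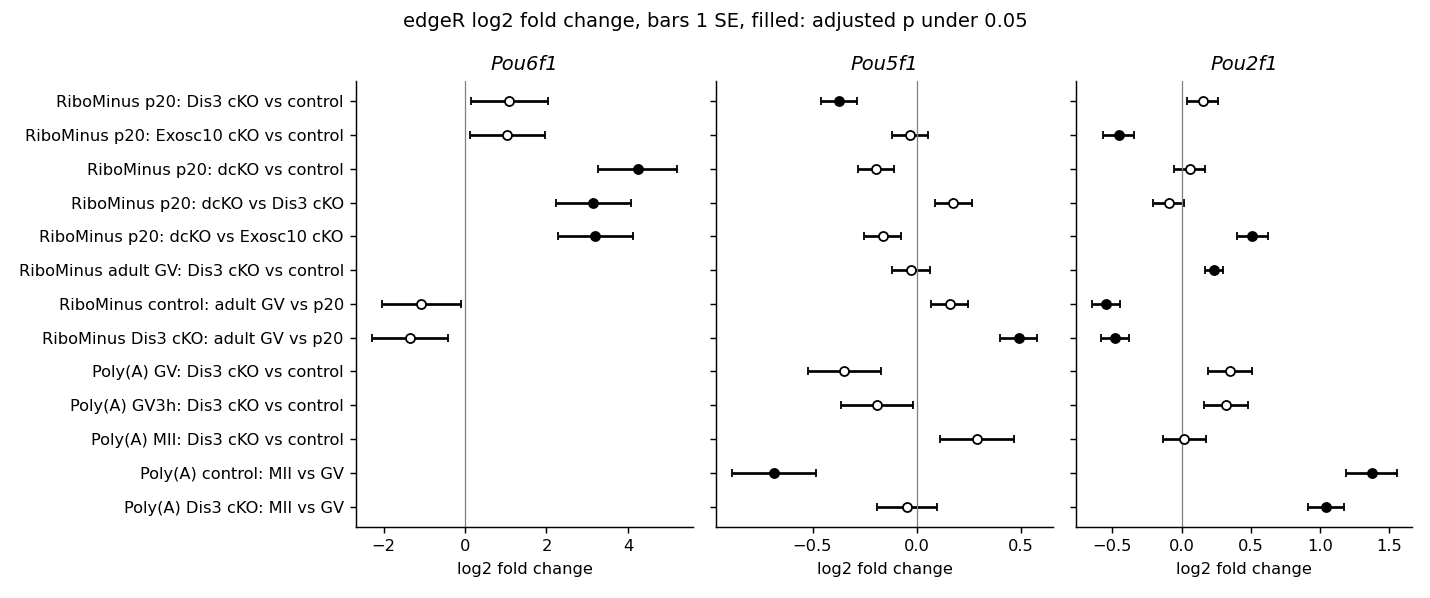
Log2 fold changes of the 3 POU genes with 1 SE from edgeR, 1 row per comparison; filled points have an adjusted p under 0.05, and Pou6f1 has no point where it did not pass the count filter. Pou6f1, chosen with earlier results of these data known, is filled in the 3 dcKO comparisons (4.24, 3.15 and 3.20), a description and no independent test. Pou5f1 is filled in p20 Dis3 cKO (-0.37), in the age comparison of Dis3 cKO (0.49) and from GV to MII in controls (-0.69).

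Of 12 other POU genes, 5 passed the count filter of the poly(A) fit, 5 that of the adult fit and 6 that of the p20 fit. Pou4f1, a regulator of sensory neuron identity also called BRN3A, was lower in dcKO than in p20 controls (67.7 ± 9.54 against 106 ± 9.21 CPM, SD, n = 8 each; log2 fold change -0.64, SE 0.10, adjusted p = 9.64e-07) and lower than the sum of both single effects (-0.72, adjusted p = 0.000124). It was also lower in MII Dis3 cKO eggs than in MII controls (59.5 against 96.0 CPM; -0.69, adjusted p = 2.41e-08). Summed granulosa and cumulus markers moved with these groups, at 22.7 to 68.2 CPM in MII Dis3 cKO and 76.6 to 152 CPM in MII controls, and their part in the result was not tested. Pou2f2, which encodes OCT2, was lower in p20 Exosc10 cKO (78.7 ± 17.8 against 112 ± 12.3 CPM; -0.51, adjusted p = 0.00732), as Pou2f1 was, and was higher at MII than at GV in controls on the TMM scale (21.8 to 40.1 CPM; 0.88, adjusted p = 2.92e-06). Pou3f4 did not pass the p20 filter and is given as values: 2.01 ± 1.56 CPM in dcKO and 0.0185 ± 0.0522 CPM in controls. Pou1f1, Pou3f1, Pou4f2, Pou4f3 and Pou5f2 had means of at most 0.293 CPM in all 12 groups.

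Known cofactors of OCT1 and OCT2 moved in both directions. The list holds 12 genes, 10 of them in the files, and 5 of 9 tested passed the test in dcKO against p20 control, 3 higher and 2 lower (55.6%, against 53.7% of all genes; median log2 fold change -0.09, against -0.01 over all genes). Snapc2 and Snapc4, subunits of the complex that activates small nuclear RNA genes, were higher (2.56, SE 0.39, adjusted p = 1.23e-06, and 0.66, SE 0.19, adjusted p = 0.00317). Hcfc2 and Parp1 were lower (-0.70, adjusted p = 0.000437, and -0.38, adjusted p = 0.0185). In p20 Dis3 cKO 0 of 9 passed edgeR's test, against 7.37% of all genes, and 0 had an unadjusted p under 0.05. In Exosc10 cKO Ncor1, a corepressor, was higher (0.36) and Parp1 lower (-0.51), 22.2% of the genes tested against 7.45% of all genes. In poly(A) data Pou2af1, the OCT coactivator known from B cells, had means of 1.45 CPM in Dis3 cKO against 0 in all controls at GV, 1.88 against 0.0142 CPM at GV3h and 1.03 against 0.0798 CPM at MII. It passed the count filter only through the Dis3 cKO libraries, so these levels are given without a test.

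Of the 12 genes listed as regulators of Pou5f1, 1 of 10 tested passed the test in p20 Dis3 cKO, near the 7.37% of all genes called there. It was Nr2f2, a nuclear receptor also called COUP-TFII, at 6.64 against 2.97 CPM (log2 fold change 1.16, SE 0.25, adjusted p = 0.00215). In Exosc10 cKO 0 of 10 passed edgeR's test, against 7.45% of all genes, and 2 had an unadjusted p under 0.05. In dcKO, where 53.7% of all genes were called, 3 were higher and 2 lower, with Nr2f2 (0.96, adjusted p = 0.00164) and Nr5a2 (0.55, adjusted p = 0.000205) among those that rose and the oocyte transcription factors Lhx8 (-0.59, adjusted p = 9.73e-05) and Nobox (-0.46, adjusted p = 0.000902) as those that fell; the medians were 0.20 for the list and -0.01 over all genes. Lhx8 was also lower in Dis3 cKO of adult GV in RiboMinus data (-0.69, adjusted p = 1.38e-05), and at GV (-0.67) and GV3h (-0.73) in poly(A) data; with tags as the samples the adult call was lost, as 0 genes passed edgeR's test there (3577 at an unadjusted p under 0.05, and DESeq2 on single oocytes called 4830). From GV to MII in controls 3 of 11 were higher and 4 lower on the TMM scale, 63.6% against 58.5% of all genes, with Figla (-3.88) and Nobox (-1.55) the lowest values and Sohlh2 (1.17) and Nr6a1 (0.87) the highest. The balance of directions in this comparison depends on the scale: of all genes, 3950 were called higher and 6229 lower with TMM, against 58 and 15217 with ERCC scaling.

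Partners and companions of OCT4 in pluripotent cells form a list of 20 genes. In p20 Dis3 cKO and in p20 Exosc10 cKO 0 of 12 tested passed edgeR's test, and 3 and 1 had an unadjusted p under 0.05. Of all genes, 7.37% and 7.45% were called in these comparisons. In dcKO 3 were higher and 2 lower (41.7%, against 53.7% of all genes; median -0.00062, against -0.01 over all genes): Zfp42, also called REX1, at 3.61 against 0.573 CPM (2.65, adjusted p = 0.000347) and Klf2 (1.47, adjusted p = 0.0268) among those higher, and Lin28b (-1.26, adjusted p = 2.32e-09) and Sall4 (-0.51, adjusted p = 0.000182) as those lower. Sall4, a zinc finger protein that binds OCT4, was also lower in Dis3 cKO in adult GV (-0.56, lost with tags as the samples), GV (-0.63) and GV3h (-0.45). At MII, 6 of 13 tested were higher and 4 lower in Dis3 cKO than in control on the TMM scale. That was 76.9% called, against 42.1% of all genes. From GV to MII in controls, on the TMM scale alone, 7 of 13 were higher, Klf4 (2.17) and Tcl1 (1.58) most, and 3 lower, Dppa5a (-4.63) and Zfp42 (-4.43) most; 76.9% were called, against 58.5% of all genes.

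The genes beside Pou6f1 were Tfcp2, 23304 bases away, and the long noncoding RNA C330013E15Rik, 14079 bases away. C330013E15Rik was higher in dcKO than in p20 controls (11.4 against 4.04 CPM; 1.51, SE 0.25, adjusted p = 4.99e-06) and in Dis3 cKO of adult GV, GV, GV3h and MII (log2 fold changes of 1.28, 1.15, 1.17 and 1.94), but not in p20 Dis3 cKO (0.00, adjusted p = 0.997). Tfcp2 differed from control in dcKO by -0.24 (adjusted p = 0.161), which did not pass the test, and was lower in Dis3 cKO of adult GV (-0.60, adjusted p = 0.00743), GV (-0.59, adjusted p = 0.0287) and GV3h (-0.63, adjusted p = 0.0101). It differed by -0.14 (adjusted p = 0.613) in Dis3 cKO at MII and by 0.16 (adjusted p = 0.588) in p20 Dis3 cKO. For both neighbours the adult call was lost with tags as the samples. Beside Pou5f1 lie Gm32362 and Tcf19, neither of which passed a filter, and Tcf19 had means of at most 0.983 CPM in any group. Cd247 overlaps Pou2f1 in the RefSeq annotation. Use of strand in the counting is not given in the sources used here, so reads in the shared stretch cannot be told apart, and Cd247 had group means of 3.05 to 22.3 CPM. Cd247 was higher at MII than at GV in controls (1.23, adjusted p = 0.00152) and lower in adult GV than in p20 controls (-0.95, adjusted p = 0.0225), the directions of Pou2f1, and was higher in Dis3 cKO at GV3h (0.99, adjusted p = 0.00787), where Pou2f1 did not pass. Like Pou2f1, it was also higher in dcKO than in Exosc10 cKO (0.78, adjusted p = 0.0315). Cd247 did not pass in p20 Exosc10 cKO (-0.45, adjusted p = 0.421) or adult Dis3 cKO (0.09, adjusted p = 0.857), where Pou2f1 did. Nor did it within Dis3 cKO from GV to MII (0.35, adjusted p = 0.199) or between ages (-0.64, adjusted p = 0.0958).

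The genes most like each POU gene were ranked by Pearson's r of log2(CPM + 1) over libraries, as a description that shares depth and scaling among its points. For Pou6f1 over 48 RiboMinus libraries they were Dusp8 (0.87), Zfp324 (0.87) and Snrk (0.87), all highest in dcKO (26.5, 2.21 and 63.3 CPM), and without the dcKO libraries r was 0.48, 0.67 and 0.55. For Pou5f1 they were Rtf1 (0.84), Gm10436 (0.83) and Bub3 (0.83) in RiboMinus data and Gm19553 (0.96), Hax1 (0.85) and Gm3143 (0.81) over 71 poly(A) libraries. For Pou2f1 they were Tmem178b (0.78), Zkscan1 (0.77) and Qsox1 (0.76) in RiboMinus data and Dstyk (0.86), Zranb1 (0.84) and Eif4g2 (0.84) in poly(A) data.

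Chromatin of pooled oocytes had been profiled by CUT&Tag, with 3 libraries per group and peaks called in each library. H3K27me3, the histone mark laid down by Polycomb, was listed over Pou6f1 in all 12 peak lists, with 4 to 9 peaks that covered 12.5% to 35.9% of the gene, and within 5 kb of its start in all 12. The p20 dcKO lists had 7, 7 and 9 peaks over Pou6f1 (28.4%, 35.9% and 20.7% of the gene), and the p20 control lists 6, 5 and 6 (16.8%, 21.7% and 25.4%); the shares of the gene overlapped and the numbers of peaks did not. The dcKO lists were longer (244827 to 299716 peaks against 151535 to 159895), and 47.5% to 56.3% of all promoters had a peak within 5 kb in them against 39.2% to 40.5% in the p20 controls. Pou5f1 had an H3K27me3 peak in 1 of 12 lists (dcKO 1), and Pou2f1 had at most 1 peak over the gene and none within 5 kb of a start.

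RNA polymerase II lists, from an antibody that the titles give as pols2s5, covered adult control, p20 control and adult Dis3 cKO. Peaks lay over Pou2f1 in all 9 lists (1 to 22 peaks), over Pou6f1 in 3 (adult control 1, adult Dis3 cKO 1 and 3) and over Pou5f1 in none. Within 5 kb of a start, peaks were listed for Pou5f1 in p20 control 2 and 3 and adult Dis3 cKO 3, for Pou6f1 in adult control 1, p20 control 1 and adult Dis3 cKO 3, and for Pou2f1 in all p20 controls and adult Dis3 cKO 1 and 3. Of all promoters, 7.79% to 13.7% had a peak within 5 kb in adult control lists, 20.9% to 25.6% in p20 control lists and 13.4% to 36.9% in adult Dis3 cKO lists. Over Pou2f1 they covered 0.387%, 1.73% and 2.86% of the gene in adult controls and 5.65%, 1.32% and 10.0% in adult Dis3 cKO, while the lists held 19697 to 35843 and 30311 to 122606 peaks. No polymerase list of dcKO oocytes was analysed here, so polymerase at Pou6f1 was not seen in the group where its RNA was highest.

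**Figure D4:**
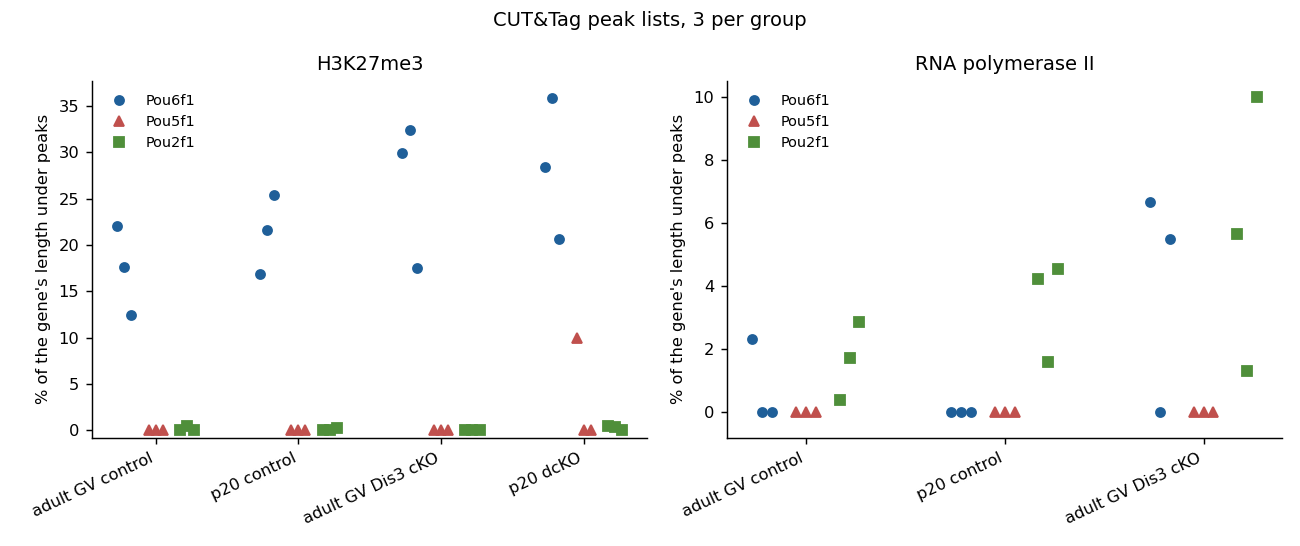
Share of each POU gene's length under CUT&Tag peaks, 1 point per peak list and 3 lists per group, for H3K27me3 (left) and RNA polymerase II (right). In the H3K27me3 panel Pou6f1 lies at 12.5% to 35.9% over all lists, while Pou5f1 and Pou2f1 lie at or near 0 except for 1 dcKO list (9.92% of Pou5f1). In the polymerase panel Pou2f1 lies at 0.387% to 10.0%.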

How the data were processed

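Single-oocyte RNA-seq (71 poly(A) and 48 RiboMinus libraries) and CUT&Tag of pooled oocytes (21 peak lists) were used, grouped by title. The deposited files hold whole-number counts per gene, used as the authors left them, with ERCC spike-in counts kept apart. The submitters' processing notes name cutadapt 2.5, STAR 2.7.2a, SAMtools 1.9, HTSeq 0.9.1, DESeq2 1.24.0, SEACR and the build mm10; the annotation release is not given in the sources used here. The peak lists carry the authors' total signal per peak, used only to filter peaks within a list, and reads had been sampled to an equal number per library without removing duplicates, per the labels' protocols. The tests used R 4.3.3 with edgeR 4.0.16: TMM scaling, the filterByExpr count filter, the quasi-likelihood F test and an adjusted p under 0.05, in 4 fits: poly(A), adult RiboMinus, p20 RiboMinus, and all RiboMinus groups for ages. SE is the log2 fold change over the square root of F. The Dis3 comparisons of a stage share their controls with the stage comparisons, and the 3 p20 knockouts share 1 control group. Members, gene lists and neighbours were chosen with earlier results of these data known; named list genes are the largest called changes, up to 2 in each direction. Likeness used a pseudocount of 1. On simulated counts for the p20 dcKO comparison (13951 genes), 84% of genes raised 4-fold and 40.8% of those raised 1.5-fold were called. The simulation held only the groups compared and left 13761 genes unchanged. In the reported fit of all p20 groups 53.7% of genes were called, so these shares do not give its power. No library was identical to another. Counting limits cover counting error only. limma 3.58.1 and DESeq2 1.42.0 served as alternatives.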

Additional observations from a re-analysis of the deposited data

Results flagged for a closer look

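Among groups of 8 libraries, the highest or lowest oocyte was far from the rest of its group in 6 cases of 26 gene and group pairs examined, a test that flags about 1 in 20 groups by chance. That rate does not hold for Pou6f1 in poly(A) GV and GV3h controls. Only 2 of 8 libraries had a count there, so a flag is nearly fixed in advance. For Pou6f1 these were dcKO oocyte 1_2 (38.4 CPM, next highest 7.97 CPM), p20 Dis3 cKO oocyte 1_4 (5.75 CPM, next highest 1.51 CPM), poly(A) GV control 4 (2.20 CPM) and GV3h control 8 (0.556 CPM). Pou5f1 had a low p20 Exosc10 cKO oocyte, 2_2 (56.9 CPM against a group mean of 78.2 CPM). Pou2f1 had a low MII control egg, number 5 (195 CPM against a group mean of 253 CPM).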

How the results depend on the processing

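Of the member results, most kept direction and call; each count over all genes that moved by more than 1.5 times is given here. The cause was not tested except where the setting has fewer samples. With ERCC scaling, Pou2f1 turned to -0.50 (control MII against GV), -0.25 (Dis3 cKO MII against GV) and -0.32 (adult GV Dis3 cKO), and Pou5f1 to -1.54 and -1.43 (adult against p20 in control and Dis3 cKO). It brought past the threshold Pou5f1 at GV (-0.64), MII (0.44) and adult GV (-0.58) in Dis3 cKO, Pou5f1 and Pou2f1 in Dis3 cKO GV3h against GV (0.53 and 0.54), Pou5f1 in Dis3 cKO MII against GV (-1.46), its MII interaction (1.08) and dcKO against Dis3 cKO (0.43), and Pou6f1 in adult against p20 (-2.81 control, -2.96 Dis3 cKO). It took Pou2f1 below it in Exosc10 cKO (-0.45) and dcKO against Exosc10 cKO (0.43). Counts of genes called became 118 and 15275 (control GV3h and MII against GV), 6434 (Dis3 cKO GV3h against GV), 5237 (MII interaction), 6843 (adult Dis3 cKO), 364 (Exosc10 cKO), 5015 (dcKO against Exosc10 cKO), 2155 (excess over the sum), 14869 and 14200 (ages, control and Dis3 cKO) and 583 (age interaction).

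With oocytes summed per tag, calls were lost for Pou2f1 in adult Dis3 cKO (0.18), Exosc10 cKO (-0.46) and control ages (-0.53) and for Pou5f1 in p20 Dis3 cKO (-0.39). Genes called fell to 0 in adult Dis3 cKO (edgeR; 3577 at an unadjusted p under 0.05, and DESeq2 on single oocytes called 4830), 286 (p20 Dis3 cKO), 174 (Exosc10 cKO), 1307 (excess over the sum), 237 and 2684 (ages, control and Dis3 cKO) and 70 (age interaction), with fewer samples per group. With the tag as a random block in limma, Pou2f1 in adult Dis3 cKO was 0.23 and missed the threshold, and 1993 (adult), 745 (p20 Dis3 cKO), 1765 (control ages) and 474 (age interaction) genes were called. With no filter Pou2f1 in adult Dis3 cKO was 0.22.

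Fitted on only the groups compared, Pou5f1 passed at GV (-0.35), GV3h (-0.21), in dcKO (-0.18) and in the age interaction (0.35), and Pou2f1 at GV3h (0.30); genes called were 4336 (MII), 2083 (control GV3h against GV), 841 and 1408 (GV3h and MII interactions). With DESeq2, Pou5f1 passed in dcKO against Dis3 cKO (0.20) and in the age interaction (0.36), and 545 genes were called for the GV3h interaction. With Dis3 cKO title numbers 9 to 16, a choice made after seeing the Pou2f1 levels and so no test of them, Pou2f1 was 0.73 (GV) and 0.51 (GV3h) and -0.65 in the MII interaction, Pou5f1 0.89 in that interaction, and 1017 genes were called for Dis3 cKO GV3h against GV. With numbers 1 to 8, Pou5f1 passed in Dis3 cKO MII against GV (-0.38).

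Leaving out 1 library, without MII Dis3 cKO 15 Pou5f1 was -0.35 at GV and -0.36 in Dis3 cKO MII against GV, both past the threshold, and without dcKO library 2 of the first tag Pou5f1 in dcKO was -0.23 and passed. Leaving out each tag in turn gave, for Pou6f1, 1.94 to 5.32 (dcKO against Dis3 cKO), 1.998 to 3.81 (against Exosc10 cKO) and 0.80 to 4.28 (excess over the sum); for Pou5f1, -0.42 to -0.33 (p20 Dis3 cKO), -0.26 to -0.18 (dcKO) and 0.21 to 0.46 (age interaction); for Pou2f1, 0.064 to 0.36 (adult Dis3 cKO), -0.55 to -0.36 (Exosc10 cKO) and 0.19 to 0.47 (excess over the sum). Calls were gained for the age interaction of Pou5f1 without AM1713 (0.46), and for the excess of Pou2f1 without the first dcKO tag (0.47) and without the second Exosc10 cKO tag (0.45). Genes called were 2338 to 6245 (adult), 489 to 778 (p20 Dis3 cKO), 381 to 1034 (Exosc10 cKO), 3218 to 5885 (excess), 1533 to 1925 (control ages) and 634 to 3095 (age interaction).

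Deviations of same-numbered libraries had a median correlation of 0.013 over 142 poly(A) pairs and 0.016 over 48 RiboMinus pairs. Single pairs ranged from -0.20 to 0.23 and from -0.31 to 0.37, so title numbers did not pair the libraries at the median, while single pairs varied. With the replicate block, Pou2f1 in the excess over the sum was 0.37 (adjusted p = 0.048) and passed the edgeR test. It did not pass with oocytes summed per tag. No other member call changed with the block. A fixed block was fitted only where groups share tags or numbers, so not for adult oocytes or between ages, where the tag entered only as a random block. On 1.5-fold changes, 28% were called in simulated poly(A) GV counts (14834 genes). That simulation also held only the groups compared, unlike the reported poly(A) fit.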
